A study of Mus musculus with 2 samples.

Results

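The genes described here were 41 lysosomal proteases, hydrolases, membrane proteins and associated factors, taken by name from the 18193 genes that the array annotation represents with probe sets of 1 symbol. All 41 were found, with 89 probe sets. The values come from 2 islet graft samples, 1 from a heterozygous Akita recipient and 1 from a wild-type (WT) C57BL/6 recipient. Akita mice carry a missense mutation of Ins2 and are insulin deficient. Both recipients were male, and both received 50 islets of wild-type C57BL/6 donors under the left kidney capsule. The labels name no insulin treatment. The Akita recipient was hyperglycemic and the WT recipient normoglycemic, and the grafts were taken 6 hours later. Labels give no age of the recipients and no number of mice behind a sample. Total RNA of each sample was hybridized to 1 GeneChip MOE430 2.0 array. The effects of the recipient genotype and of its blood glucose cannot be told apart, and with 1 array per condition no difference could be tested.

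Lysosomes are acidic organelles in which proteases, glycosidases, lipases and phosphatases break down material that reaches them by endocytosis, phagocytosis and autophagy. Their membrane holds heavily glycosylated LAMP proteins, cholesterol carriers and ion channels, and the vacuolar proton pump (V-ATPase) keeps the lumen acidic. Lysosomes are found in nearly all cell types and are abundant in macrophages and in the reabsorbing cells of the proximal tubule. Many lysosomal genes are under the control of TFEB, a transcription factor that binds the CLEAR element, as known from human cells.

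Signals were MAS5 values on a linear scale, and the mean without the outer 2% of probe sets at each end was 500.004 on both arrays. The median signal was 91.5 on the Akita and 82.9 on the WT array. A signal under this value was regarded as low, and genes with low signals in both samples were regarded as not measured. The 3' over 5' ratio of the Actb control probe sets, a sign of RNA quality, was 3.99 in the Akita and 3.54 in the WT sample, and that of the Gapdh control probe sets was 1.76 in Akita and 1.30 in WT. Islet and kidney markers were high in both samples, such as Ins2, which encodes insulin, with 88302 in Akita and 68738 in WT, and Kap, a proximal tubule gene, with 128500 in Akita and 89517 in WT. The samples therefore held kidney tissue beside the islets. In such bulk samples, fewer cells of a type and less RNA per cell cannot be told apart. The spread of ratios between the 2 brightest probe sets of a gene served as a technical scale. Its SD on the log2 scale was 0.20 above a signal of 4096, 0.23 from 1024 to 4096, 0.36 from 256 to 1024, 0.70 from 64 to 256 and 2.11 below 64. This SD describes the arrays and is no replicate error.

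Most lysosomal genes had similar signals in the grafts of the Akita and the WT recipient. Of 40 measured members, 31 were within 1.5-fold, beside 71.9% of all 12538 measured genes. The median log2 ratio of Akita over WT was -0.03 for the members and -0.06 for all measured genes. Members were over 2-fold higher in the Akita sample in 4 cases (Laptm5, Ctss, Npc1 and Ctsc), beside 7.56% of measured genes, and over 2-fold lower in 1 case (Ctsk), beside 5.54%. In this set, which includes genes with 1 low signal, the counts of both directions were near the shares over all genes. Division of each array by its median made these counts 4 higher and 3 lower, beside 6.48% and 7.58% of measured genes, and centring on islet endocrine genes made them 2 higher and 10 lower, beside 3.94% and 30.1%. With endocrine centring the median log2 ratio was -0.73 for the members and -0.77 for all measured genes. At other limits, ratios over 1.5-fold were found upward for 5 members and downward for 4, beside 13.7% and 14.4% of measured genes. Over 5-fold, 1 member was higher (Laptm5) and 1 lower (Ctsk), beside 2.42% and 1.38%.

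**Figure D1:**
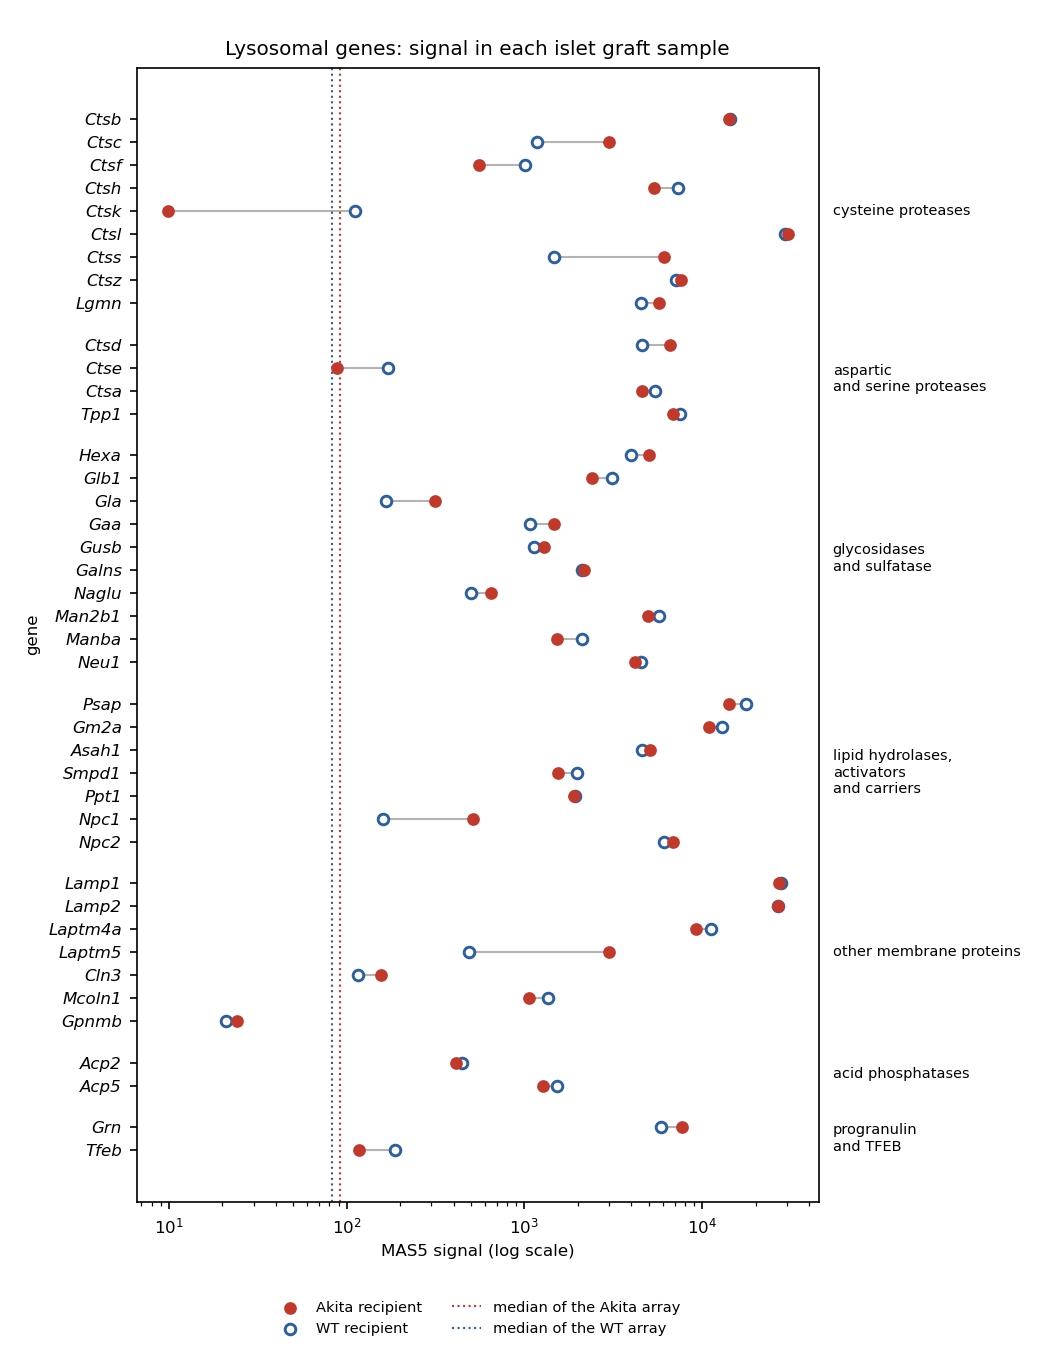
MAS5 signal (x axis, log scale) of the brightest probe set of each of the 41 lysosomal genes in the graft sample of the Akita recipient (filled) and of the WT recipient (open), 1 array each, grouped by role. Dotted lines mark the array medians (91.5 and 82.9), and Laptm5, Ctss, Npc1 and Ctsc show the wide gaps with the Akita point to the right.

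For 38 members neither signal was low. Of these, 4 were over 2-fold higher, 0 over 2-fold lower and 31 within 1.5-fold, beside 3.53%, 1.89% and 80.7% of the 10816 genes of this kind. Here the share of members over 2-fold higher was above that over all genes, a difference that was not tested. Ctsk and Ctse passed the limit for measured genes through the WT signal alone, so their direction was fixed by that limit. Gpnmb, a glycoprotein of macrophages and melanocytes, was below the median in both samples, with signals of 24.1 in Akita and 20.9 in WT, and no fold is given for it. The summed signal of the 41 members was 232912 in the Akita and 229794 in the WT sample, a ratio of 1.01, beside 1.03 over all genes. Bright genes such as Ctsl, Lamp1 and Lamp2 weigh most in this sum.

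**Figure D2:**
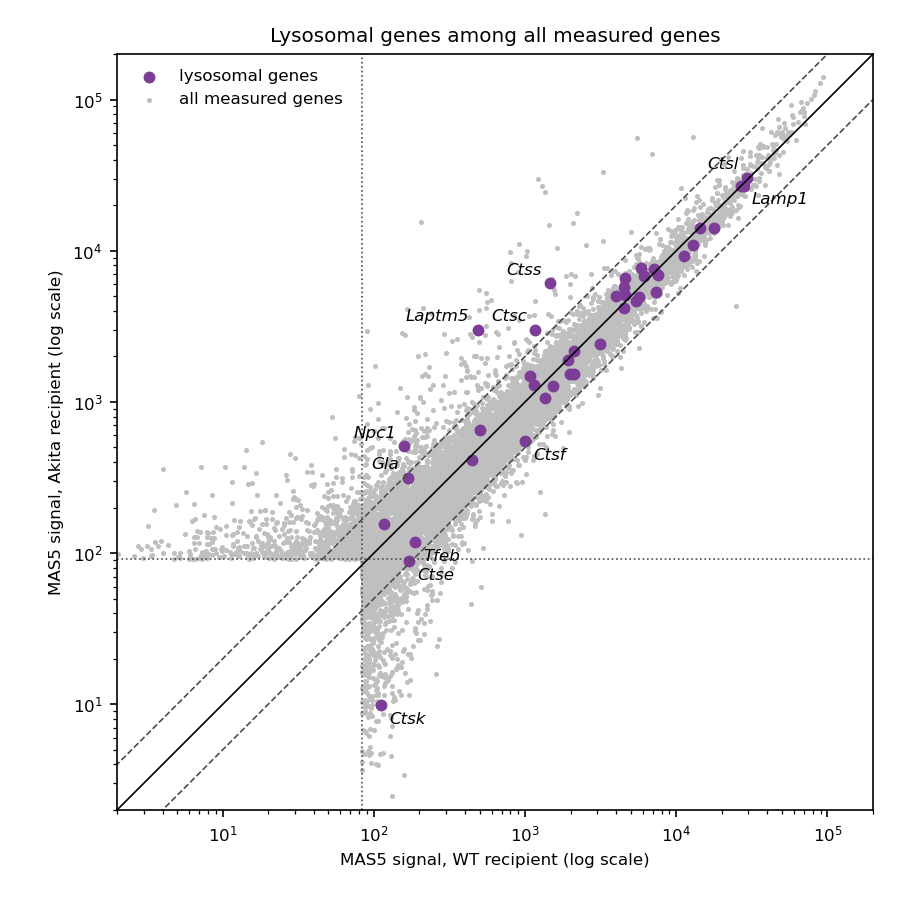
Signal in the graft of the Akita recipient (y axis, log scale) against that in the graft of the WT recipient (x axis, log scale) for all 12538 measured genes (grey) and the 40 measured lysosomal genes (purple). Signals are equal on the solid line and differ by 2-fold on the dashed ones, and array medians are dotted. Most purple points lie along the line of equal signals, with 4 above the upper dashed line and Ctsk far below the lower one.

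The promoters of several members held the core of the CLEAR element. RefSeq promoter windows (GRCm38.p6, 250 bases before to 50 after a transcript start) were found for 35 of the 41 genes, and the letters GTCACGTG were searched on both strands. They contain the E-box CACGTG. A match was found in 9 of the 35 members, beside 2.55% of 27025 genes with such a window and 4.66% of the 10111 measured genes among them. Because this element is known from lysosomal genes, a share above that of all genes was no new result. The windows of 30 bases below show 1 match per gene, to set the element beside the signal ratio of each gene, and the capitals mark the match (CACGTGAC is its reverse).
Ctsd: cgcccgcgtctCACGTGACccgttgagggc
Gla: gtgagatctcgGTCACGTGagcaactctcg
Cln3: tcacgggtactGTCACGTGacccccaacct
Naglu: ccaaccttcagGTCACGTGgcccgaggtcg
Lgmn: atggaatgtctGTCACGTGgtccattttat
Lamp1: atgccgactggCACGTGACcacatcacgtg
Ctsa: atgagcaaactGTCACGTGatgcagatgct
Mcoln1: gggtcgcgcttGTCACGTGttcagttcagg
Glb1: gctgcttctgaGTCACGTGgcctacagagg

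These windows lie at chr7:142387907-142387936 (Ctsd), chrX:134601183-134601212 (Gla), chr7:126583341-126583370 (Cln3) and chr12:102439125-102439154 (Lgmn) on the minus strand. On the plus strand they lie at chr11:101070008-101070037 (Naglu), chr8:13159122-13159151 (Lamp1), chr2:164833748-164833777 (Ctsa), chr8:3500435-3500464 (Mcoln1) and chr9:114401017-114401046 (Glb1). Counted from the transcript start, the first base of the match was at -98 in Ctsd, -196 in Gla, -28 in Lamp1 and -14 in Ctsa. Ctsd held another match at -245, Ctsa another at 6 and Mcoln1 another at -45. In Cln3 the matches on the same and the opposite strand, at -123 and -121, overlapped. The median log2 ratio was 0.35 over the 9 genes with a match, from -0.37 for Glb1 to 0.92 for Gla, and -0.10 over the 25 measured members with a window and no match. All 9 were thus within 2-fold, beside 10895 of 12538 measured genes. The groups overlapped, and a match is a description of the letters, not a bound site.

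Windows were also searched for GAGGAAGT, a form of the element bound by PU.1, a transcription factor of myeloid and B cells. This search was chosen after the ratios of Ctss and Ctsc had been seen. The letters were found on either strand in 4 of the 35 members (Ctss, Ctsc, Gla and Gusb), beside 3.69% of genes with a window and 3.67% of the measured ones. Of these, Ctss and Ctsc were over 2-fold higher, and Gla and Gusb were within 2-fold on their brightest probe sets (log2 ratios 0.92 and 0.18). A dimmer probe set of Gusb, with a low WT signal, had 1.67. The match began at -2 in Ctss and at -151 in Ctsc, counted from the transcript start. Both are shown because their genes were over 2-fold higher in the Akita sample, with capitals for the reverse of the searched letters.
Ctss: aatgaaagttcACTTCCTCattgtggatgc
Ctsc: gtcactaactaACTTCCTCaggccacctcg

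The plus strand positions are chr3:95526773-95526802 for Ctss and chr7:88277923-88277952 for Ctsc. Laptm5, with a window, had no match to either element there, and Npc1 was not among the 35 genes.

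**Figure D3:**
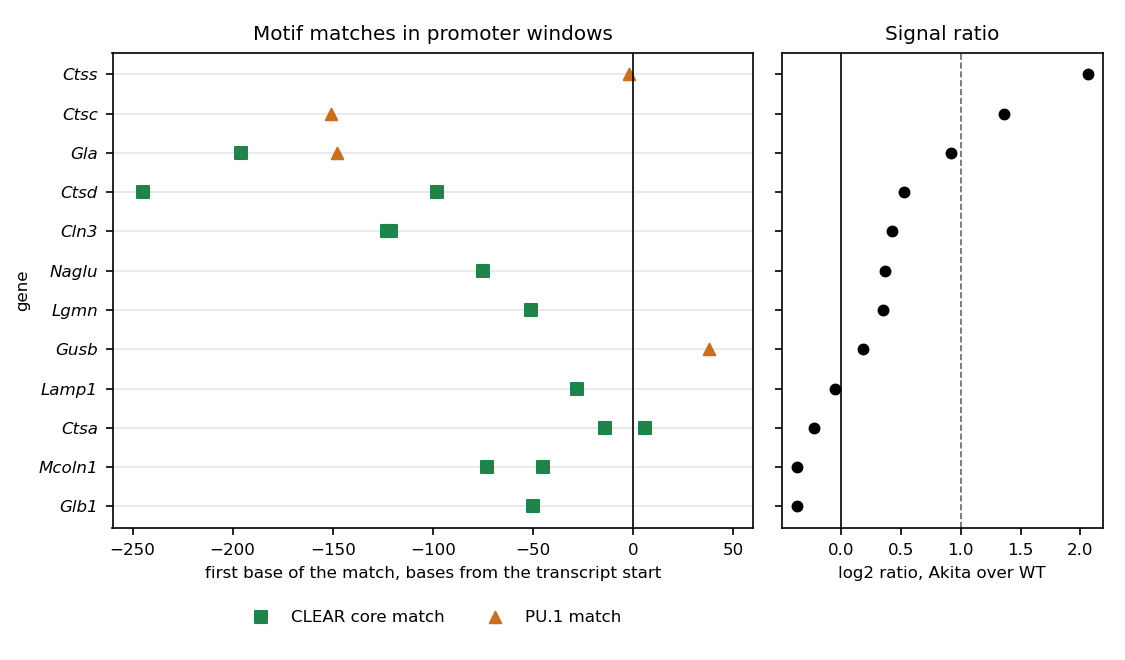
Left, position of each CLEAR core match (squares) and PU.1 match (triangles) in the promoter windows of 12 lysosomal genes, in bases from the transcript start (vertical line), with 1 row per gene. Right, log2 ratio of signals of the same gene, Akita over WT, with the dashed line at 2-fold. The 9 genes with squares lie between -0.37 and 0.92, and of the 3 genes with triangles only, Ctss and Ctsc lie beyond 1 and Gusb at 0.18.

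Of the 9 cysteine proteases, 2 were over 2-fold higher in the Akita sample and 1 lower, beside 7.56% and 5.54% of measured genes. The others were within 2-fold. Ctss, which trims the invariant chain of MHC class II in antigen-presenting cells, had a signal of 6109 in the Akita and 1462 in the WT sample, 4.18-fold higher. Ctsc, a dipeptidyl peptidase that activates the granule proteases of neutrophils and mast cells, had signals of 2999.51 in Akita and 1171 in WT, 2.56-fold higher. The log2 ratios of 2.06 and 1.36 were each past 2 technical SD. Ctss has 1 probe set on the array. The other probe sets of Ctsc were low, with 75.6 and 35.4 in Akita, against 76.3 and 46.0 in WT, and the ratio of Ctsc therefore rests on its brightest one.

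The cysteine cathepsins found in most cells did not share these ratios. Ctsb and Ctsl, endopeptidases of bulk protein breakdown, had signals of 14189 and 30403 in the Akita sample, against 14436 and 29364 in the WT sample. Ctsz, a carboxypeptidase, had signals of 7596 in Akita and 7131 in WT. These genes differed by less than 1 technical SD on their brightest probe sets. The log2 ratios of the Ctsb probe sets without a low signal ranged from -0.48 to 0.35, and the dimmer probe set of Ctsl had -0.33. Lgmn, the asparaginyl endopeptidase that processes other cathepsins, had signals of 5745 in Akita and 4514 in WT, 1.27-fold higher and within 2 technical SD. Ctsh, an aminopeptidase, was 1.36-fold lower (5371 in Akita, 7321 in WT), and its second probe set had a log2 ratio of -0.04. Ctsf was 1.82-fold lower, with signals of 552 in Akita and 1004 in WT. The log2 ratio of -0.86 was past 2 technical SD of its signal class. Its other probe set, low in both samples, had signals of 52.2 in Akita and 7.46 in WT, the opposite direction. Ctsk, the collagen-degrading cathepsin of osteoclasts, had signals of 9.82 in Akita and 112 in WT. With low signals raised to the array medians it was at least 1.22-fold lower, so the large ratio rests on a signal far below the array median. With signals raised in this way, the count over 2-fold was 4 higher and 0 lower members, beside 4.33% and 2.15% of measured genes.

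None of the 4 aspartic and serine proteases differed by more than 2-fold, beside 10895 of 12538 measured genes within this limit. Ctsd, the main aspartic protease of lysosomes, had signals of 6589 in Akita and 4569 in WT, 1.44-fold higher and past 2 technical SD. Ctsa, the carboxypeptidase that protects beta-galactosidase and sialidase in a complex, had signals of 4617 in Akita and 5401 in WT. Tpp1, a tripeptidyl peptidase, had signals of 6886 in Akita and 7530 in WT. Both were slightly lower and within 2 technical SD. Ctse, an aspartic protease of stomach and immune cells, had signals of 88.4 in Akita and 171 in WT. It was at least 1.87-fold lower on this probe set, while its dimmer one, low in both samples, was higher in Akita (49.7 against 8.04 in WT).

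The 10 glycosidases and sulfatases, which take apart glycans, glycolipids and glycosaminoglycans, were all within 2-fold (median log2 ratio 0.11, from -0.48 to 0.92). Of all 12538 measured genes, 10895 were within this limit. Gla, alpha-galactosidase A, had signals of 315 in Akita and 167 in WT, 1.89-fold higher, which was within 2 technical SD at such low signals. The other probe sets of Gla, low in both samples, went in opposite directions. Gaa, which breaks down glycogen, was 1.38-fold higher on one probe set (1476 in Akita, 1071 in WT) and 1.27-fold on the other. Manba, beta-mannosidase, was 1.39-fold lower, with signals of 1522 in Akita and 2117 in WT. Gaa and Manba were just past 2 technical SD. The remaining 7 were between 1.29-fold lower and 1.29-fold higher. Hexa, the alpha subunit of beta-hexosaminidase A, had signals of 5025 in Akita and 3987 in WT. Glb1, beta-galactosidase, had signals of 2413 in Akita and 3121 in WT. Neu1, the sialidase that acts in a complex with Ctsa and Glb1, had signals of 4187 in Akita and 4500.3 in WT. All 3 genes of this complex had ratios below 1, beside 6917 of the 12538 measured genes. Each was within 2 technical SD. Gusb (beta-glucuronidase), Galns (a sulfatase of keratan sulfate), Naglu (an enzyme of heparan sulfate breakdown) and Man2b1 (alpha-mannosidase) had log2 ratios of 0.18, 0.04, 0.37 and -0.20. The dimmer probe set of Gusb had signals of 193 in Akita and 60.9 in WT, and its WT signal was low.

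Of the 7 genes of lipid breakdown and lipid transport, 1 was over 2-fold higher, beside 7.56% of measured genes. Npc1, the membrane protein that moves cholesterol out of lysosomes, had signals of 511 in Akita and 159 in WT, 3.21-fold higher (log2 ratio 1.68, past 2 technical SD). It has 1 probe set. With a floor at the 75th percentile the log2 ratio was 0.34, and after endocrine centring it was 0.98, both below 2-fold. Npc2, the soluble protein that hands cholesterol to Npc1, had signals of 6852 in Akita and 6094 in WT, a log2 ratio of 0.17, and its other probe set of high signal had -0.03. The partners in cholesterol export thus differed in their ratios. Psap, the precursor of the saposins, and Gm2a, the GM2 activator, which present glycolipids to hydrolases, had signals of 14172 and 10969 in Akita, against 17749 and 12885 in WT. Smpd1, acid sphingomyelinase, was 1.29-fold lower, and its dimmer probe set had a log2 ratio of 0.15. Asah1, acid ceramidase, and Ppt1, a palmitoyl-protein thioesterase, were within 1.12-fold.

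The structural proteins of the lysosomal membrane had nearly equal signals. Lamp1 had signals of 26972 in Akita and 27882 in WT, and Lamp2 26721 in Akita and 26737 in WT. Of the other probe sets of Lamp2, 2 had log2 ratios of -0.07 and 0.03 and 1 had 0.75. Laptm4a, a membrane protein of wide expression, had signals of 9295 in Akita and 11228 in WT. Its relative Laptm5, a lysosomal membrane protein of hematopoietic cells, had signals of 2998 in Akita and 485 in WT, 6.18-fold higher, the largest ratio among the members. A second probe set of Laptm5 had signals of 1527 in Akita and 258 in WT, 5.93-fold higher. The 3 dimmer ones had log2 ratios of 0.58, 0.59 and 1.07. Mcoln1, the calcium channel TRPML1, was 1.29-fold lower (1055 in Akita, 1359 in WT), and its second probe set had a log2 ratio of -0.62. Cln3, a membrane protein mutated in juvenile Batten disease, had signals of 155 in Akita and 116 in WT.

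Neither acid phosphatase nor progranulin differed by more than 1.5-fold. Acp2 had signals of 414 in Akita and 447 in WT, while its other probe sets had log2 ratios of 0.58 and 0.03. Acp5, the tartrate-resistant phosphatase of osteoclasts and macrophages, had signals of 1267 in Akita and 1535 in WT. Grn, which encodes progranulin, a growth factor cleaved into granulins in lysosomes, was 1.32-fold higher (7709 in Akita, 5841 in WT) and past 2 technical SD, with log2 ratios of 0.31 and 0.11 on its other probe sets. Tfeb had signals of 118 in Akita and 188 in WT, 1.60-fold lower, within 2 technical SD at such low signals.

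Over all measured members, 7 were higher in Akita and 3 lower by more than 2 technical SD, beside 6.95% and 7.73% of measured genes. The higher ones were Laptm5, Ctss, Npc1, Ctsc, Ctsd, Gaa and Grn, and the lower ones Ctsf, Ctsh and Manba. Of 27 members with several probe sets, 19 had at least 2 of them without a low signal. The log2 ratios within a gene then ranged over a median of 0.25, and 14 of these 19 genes had a range below 0.5. The widest range, 2.05, was that of Laptm5. Over all 89 probe sets of the members, ratios over 2-fold were found upward for 13 and downward for 5, beside 16.0% and 13.8% of the 34945 probe sets used. Without low signals there were 66 probe sets, with 5 such ratios upward and 0 downward, beside 3.35% and 1.88% of 17811.

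**Figure D4:**
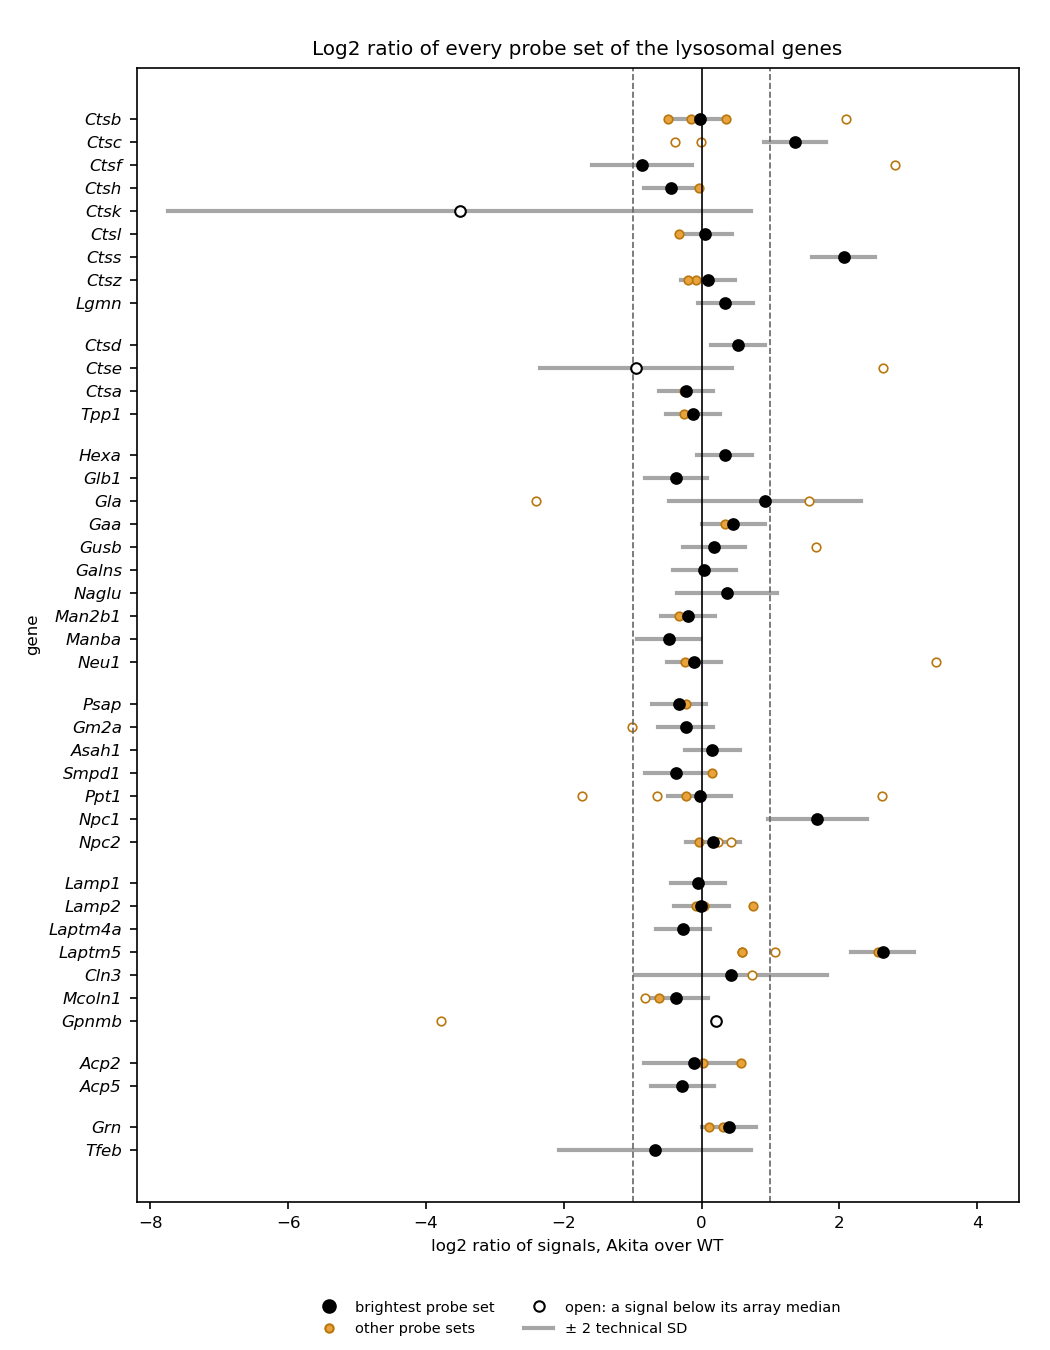
Log2 ratio of signals, Akita over WT (x axis), for each probe set of the 41 lysosomal genes. Black points are the brightest probe set of a gene, orange points the others, open points have a signal below its array median, and grey bars are 2 technical SD to each side. Dashed lines mark 2-fold, and the bars of Ctss and Laptm5 lie wholly beyond the right one.

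Macrophage markers were higher in the Akita sample beside Laptm5, Ctss, Npc1 and Ctsc. The array represents 19 macrophage markers. Over 2-fold higher were 15 of the 17 measured ones and lower 0, beside 7.56% and 5.54% of measured genes (median log2 ratio 2.58). Itgam, Mrc1 and Marco passed the limit for measured genes through the Akita signal alone, so their direction was fixed by that limit. For the other 14 neither signal was low. With low signals raised to the array medians the count was 15 higher, beside 4.33%, and the median was 2.36. The summed signal of the 19 markers was 99759 in the Akita and 13581 in the WT sample, and Lyz2 was the largest part of both sums. Lyz2 (lysozyme) had signals of 55987 in Akita and 5539 in WT, Cd14 (a receptor component for lipopolysaccharide) 10468 in Akita and 1624 in WT, and Tyrobp (a signalling adaptor) 7258 in Akita and 898 in WT. No macrophage marker was at 0. Aif1 and Cd163 were below the median in both samples, and Spi1, which encodes PU.1, had signals of 146 in Akita and 142 in WT. Cx3cr1 went the other way, with signals of 97.6 in Akita and 131 in WT. Of 5 measured neutrophil markers, 4 were over 2-fold higher, beside 7.56% of measured genes. With low signals raised to the array medians there were 3 (S100a8, S100a9 and Csf3r), beside 4.33%. Mpo had signals of 118 in Akita and 140 in WT, and Elane, Cxcr2, Camp and Ngp were below the median in both samples. The summed signal of the 9 neutrophil markers on the array was 17371 in Akita and 4528 in WT. Of 6 markers of islet endocrine cells other than beta cells, 4 were over 2-fold higher (median log2 ratio 1.35), beside 7.56% of measured genes. Of 9 beta cell markers 1 was (median 0.36). Proximal tubule markers had a median log2 ratio of -0.10, and all 12 were within 2-fold, beside 10895 of 12538 measured genes. All 6 measured endothelial markers had ratios below 1, beside 6917 of 12538 measured genes. Their median log2 ratio was -0.81, or -0.64 with low signals raised to the array medians. Over 2-fold lower were 2 of them, or 1 with low signals raised in this way, beside 5.54% and 2.15%. Pecam1 and Tek passed the limit for measured genes through the WT signal alone, so their direction was fixed by that limit. The part of leukocytes, endocrine, tubule and endothelial cells in the signals of the lysosomal genes was not tested.

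Other genes of the lysosome were described by 7 lists of related function. Of 27 other measured hydrolases, 26 were within 2-fold (median log2 ratio -0.04), beside 10895 of 12538 measured genes. Sgsh, an enzyme of heparan sulfate breakdown, was at least 1.93-fold lower, with signals of 64.4 in Akita and 176 in WT. Of 25 other measured lysosomal membrane proteins, 3 were over 2-fold higher and 0 lower, beside 7.56% and 5.54% of measured genes (median 0.18). These were Cd68, a macrophage LAMP-family protein that is also in the macrophage list (1074 in Akita, 166 in WT, 6.46-fold higher), Slc11a1, a metal transporter of phagosomes (1037 in Akita, 276 in WT, 3.75-fold higher), and Tpcn2, a cation channel (176 in Akita, 43.9 in WT, at least 2.12-fold higher). Tpcn2 and Sgsh passed the limit for measured genes through 1 signal alone, so their direction was fixed by that limit.

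Of 23 measured V-ATPase subunits, 2 were over 2-fold lower and 0 higher, beside 5.54% and 7.56% of measured genes (median log2 ratio -0.23). Atp6v1b1 and Atp6v1c2, forms of the B and C subunits known from acid-secreting cells of the kidney, had signals of 501 and 113 in Akita, against 1385 and 303 in WT, 2.77-fold and 2.67-fold lower. Markers of nephron segments other than the proximal tubule were also lower, all 10 with ratios below 1, beside 6917 of 12538 measured genes. Of these markers 2 were over 2-fold lower, beside 5.54%, and also 2 with low signals raised to the array medians, beside 2.15%. Cldn16 passed the limit for measured genes through the WT signal alone, so its direction was fixed by that limit. The summed signal of the markers was 43752 in Akita and 58326 in WT. The part of these segments in the V-ATPase signals was not tested.

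Of 19 genes of lysosomal sorting, 8 of TFEB relatives and their regulation and 16 of autophagy, 0 were over 2-fold higher or lower. Of all measured genes, 7.56% were higher and 5.54% lower by this limit. The 2 genes with the largest difference in each of these lists were Ap3d1, an adaptor subunit of lysosomal transport (983 in Akita, 1554 in WT), and Gga2, a sorting adaptor (1447 in Akita, 2058 in WT), then Tfec, a TFEB relative of macrophages (1255 in Akita, 853 in WT), and Zkscan3, a repressor of autophagy genes (1129 in Akita, 852 in WT), and last Vps18, a tethering factor (140.2 in Akita, 249.5 in WT), and Gabarapl1, an autophagosome protein (8502 in Akita, 14138 in WT). All of them were within 1.78-fold. With the median over the probe sets of a gene, the log2 ratios of Ap3d1 and Vps18 turned to 0.23 and 0.14. That of Zkscan3 fell from 0.41 to 0.05. Of 3 measured cystatins, inhibitors of cysteine cathepsins, Stfa3 was at least 5.17-fold higher (428 in Akita, 30.1 in WT). It passed the limit for measured genes through the Akita signal alone, so its direction was fixed by that limit. The Stfa genes are close copies, so this signal may be shared between them. Over the 7 lists together, 4 of 121 measured genes were over 2-fold higher in Akita and 3 lower, beside 7.56% and 5.54% of all. The median log2 ratio was -0.05. With low signals raised to the array medians the counts were 4 and 2, beside 4.33% and 2.15%.

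**Figure D5:**
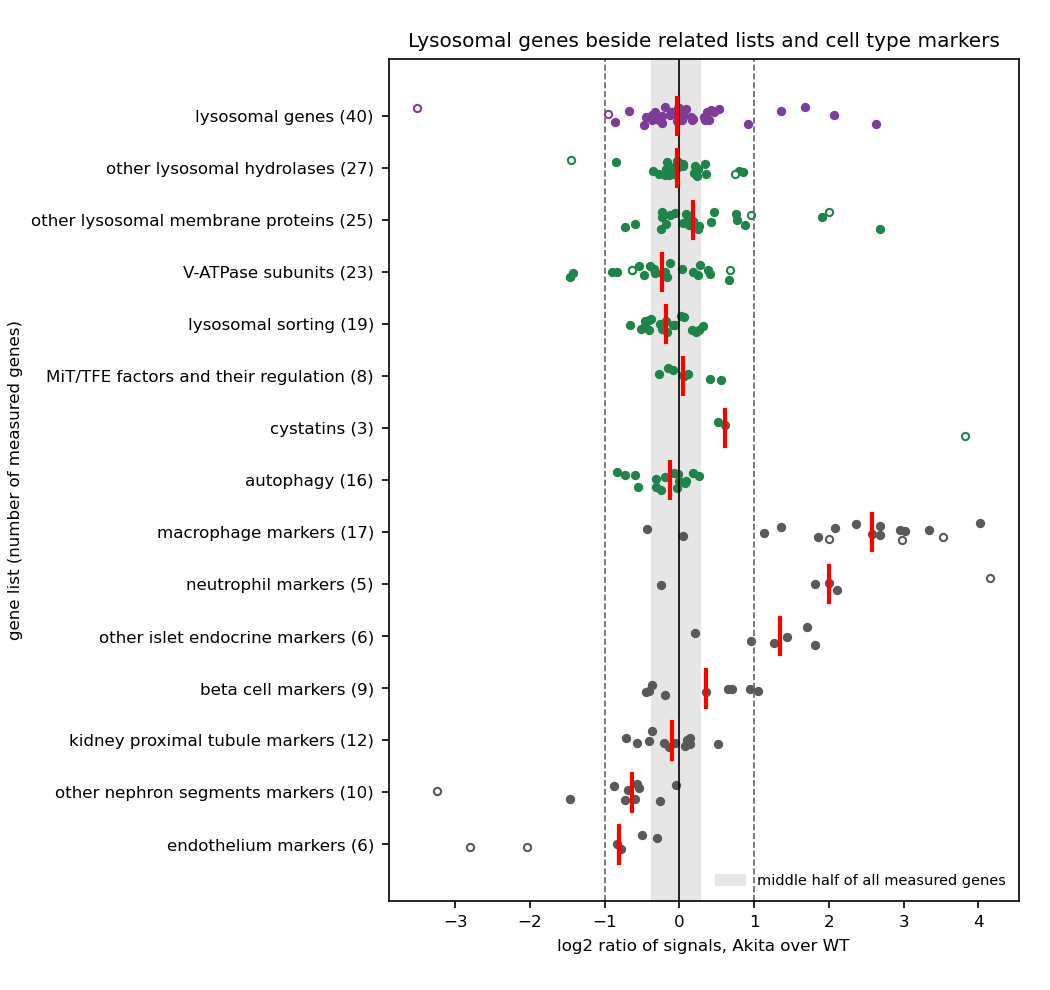
Log2 ratio of signals, Akita over WT (x axis), 1 point per measured gene, for the lysosomal genes (purple), 7 related lists (green) and cell type markers (dark grey), with the number of measured genes after each name. Open points have a signal below its array median, red bars are list medians, dashed lines mark 2-fold and the grey band spans the quartiles of all measured genes. The median of the lysosomal genes (-0.03) lies in the band, that of the macrophage markers (2.58) far to the right of it.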

How the data were processed

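The authors deposited 1 table of MAS5 signal intensities on a linear scale, 1 column per sample. The sources used here give no MAS5 version, and the methods name the Subio Platform with no settings. Equal trimmed means show that the arrays had been scaled to each other. Of 45101 probe sets, 64 were controls, 932 carried several symbols and 9211 none in the platform annotation, and 34945 others carried 1 symbol and were used. A gene with several probe sets was represented by its brightest, judged by the mean of both log2 signals. Signals were compared without further scaling, as Akita over WT. A fold with 1 low signal is given as a bound, with both signals raised to the array medians. Probe sets of different genes bind with different strength, so signals were not ranked between genes. The technical SD was that of the difference between the 2 brightest probe sets of a gene in the same signal class, divided by the square root of 2, and was added after the data had been seen. The functions were tested on simulated signals. The text names all 41 members and members of related lists over 2-fold or, where there were none, the 2 with the largest ratio. It also names up to 3 bright markers per cell type and some that were low or not higher in Akita. Ins2, Kap, Spi1, Aif1, Cd163 and the other markers named were chosen with values known. The members and all lists were chosen with earlier results of these data known. Precision was limited by having 1 array for each condition. Promoter sequences are those of RefSeq (GRCm38.p6), matched by gene identifier. The alternatives covered scaling, floors, probe sets, filters and fold limits. Figures were drawn with matplotlib 3.10.9, and values computed with pandas 2.3.3, numpy 2.4.6, statsmodels 0.14.6 and scipy 1.17.1 under Python 3.11.15.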

Additional observations from a re-analysis of the deposited data

How the results depend on the processing

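No paired analysis was possible because there was 1 array per condition, and for the same reason no replicate could be left out. The count of members over 2-fold higher was 3 or 4 except for 2 after centring on islet endocrine genes, where Npc1 and Ctsc were lost. Npc1 was also lost with floors at the 75th percentile (log2 ratio 0.34). The count was 5 at a limit of 1.5-fold and 1 at a limit of 5-fold. The count of members over 2-fold lower, 1 as reported, was 3 after median centring, 2 after quantile normalization and after loess correction, 10 after centring on islet endocrine genes, and 4 at a limit of 1.5-fold. It was 0 with floors at the array medians or at the 75th percentile, with the array median added to both signals, and where genes with 1 low signal were left out. Centring on islet endocrine genes took the median log2 ratio to -0.73 for the members, -0.74 for other lysosomal hydrolases, -0.52 for other lysosomal membrane proteins and -0.93 for V-ATPase subunits, and by its construction it lowers every ratio by the same amount. Under the other alternatives these 4 medians moved by less than 0.20, the smallest technical SD. When a gene was given the median ratio of its probe sets, Ctsc had a log2 ratio of -0.0137, and both of its other probe sets were low. Ctsf then had 0.97, Ctse 0.84, Ap3d1 0.23 and Vps18 0.14, all against negative ratios as reported. Gusb then had 0.92, against 0.18 as reported, and Zkscan3 had 0.05, against 0.41 as reported. Laptm5 then had 1.07, and without probe sets that can bind several transcripts it was not measured, since its remaining probe set was low. Vps18 then had 0.43. Ctss was over 2-fold higher under each of the 12 alternatives that give a log2 ratio. Low signals limit what can be said of Ctsk, Ctse, Npc1, Gla, Cln3, Gpnmb and Tfeb.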
